A study of Zea mays with 33 samples.

Results

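Identifiers that begin with ENSRNA are the ones the maize annotation gives to genes of noncoding RNA. The members described here are the 241 ENSRNA rows, of 1765 such rows and of 46430 rows in all of the count table, that had at least 10 reads in at least 3 of the 33 libraries, counted on the strand the library kit reports as sense. They were therefore chosen by their own read counts, so that their detection and level are a description and not a test. Which kind of noncoding RNA each identifier stands for is not given in the sources used here, and no class is assigned to any of them below.

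The libraries came from wild-type plants of the maize inbred B73, with no treatment differing among them, in 11 tissues with 3 libraries each. Every sample title carries the same code, WW, which is also in the name the paper gives the experiment. Seedlings 4 days old by sowing date, raised in perlite out of direct light and pooled by 3 per library, gave the root samples (DAS4_R) and the hypocotyl samples (DAS4_HY). Green blades (V2_LF) and white inner immature leaf parts (V2_LF-I) came from single greenhouse plants at the V2 stage. Single greenhouse plants at pollen shed were used for 5 tissues. PS_LF was a blade without midrib, from the last leaf with a ligule, and PS_IN1 the internode just under the ear. PS_SILK was made of silks still growing within the husk, PS_TAS of pieces of tassel bearing fresh pollen, and PS_EAR of the mid part of ears before pollination. Whole seeds labelled 35 (DAP35_S) and 12 (DAP12_S) days after pollination were pooled from 1 field-grown ear per library, and the study's methods give a different age for the younger seeds. Growth place and tissue cannot be told apart where they go together, nor can the phenol-chloroform extraction be told apart from the 35-day seeds, the only tissue for which it was used.

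Noncoding RNAs such as transfer, small nuclear and small nucleolar RNAs act as RNA in translation, splicing and the modification of other RNAs, and in plants many small nucleolar RNAs are cut from transcripts that carry several of them or from introns. Most of these molecules are short and carry no poly(A) tail. The libraries were made from poly(A)-selected RNA and reads matching ribosomal RNA were removed before alignment, so a read count here measures what entered the library from a locus, which can be precursor, polyadenylated or host transcript. In such bulk material fewer cells with an RNA and less of it per cell cannot be told apart.

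The 33 libraries held 15832186 to 42886946 reads on genes. Reads on genes of the mitochondrial genome, whose RNAs mostly lack stable poly(A) tails, counted for each 1000000 reads on genes, ranged from 6.35 to 35.5 outside the tassel, ear and 35-day seeds, and stood at 101, 118 and 29.9 in the 3 tassel libraries, 16.9, 34.8 and 14.6 in the ears and 74.2, 20.6 and 72.1 in the 35-day seeds. The tassel libraries 1 and 2 and the 35-day seed libraries 1 and 3 thus stand apart from the rest. Several of the counts and calls below that rest on them are given with and without them. Tissue means, detection, the ranking of tissues and the correlations are given with all libraries only. Levels of members are reported as reads for each 1000000 on genes (CPM) scaled by TMM factors, which ranged from 0.479 in a green V2 leaf to 1.48 in an ear. They are per feature and not per length, so only levels of the same feature are compared.

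Of the 1765 ENSRNA rows, 1275 had no read in any library and 490 had at least 1. The 241 members held 303006 of the 310800 ENSRNA reads (97.5%), and all ENSRNA rows together made up 0.0348% of the reads on genes. At the same read minimum 28816 of 44146 nuclear gene models were kept (65.3%), against 13.7% of the ENSRNA rows. The annotated microRNA precursors, listed under other identifiers, had 2 reads over 154 rows. A member had a median of 373 reads over the 33 libraries, with 57 members at 1000 reads or more and 7 under 100. The median member averaged 0.454 CPM, against 12.5 CPM for the median feature tested, and 69 members averaged at least 1 CPM.

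The edge of the rule fell among members of very few reads. Among the rows just inside it, ENSRNA049455185, ENSRNA049464122 and ENSRNA049468588 had a third-highest library count of 10, with 157, 136 and 81 reads in all. Among those just outside, ENSRNA049453693, ENSRNA049456300 and ENSRNA049456789 had a third-highest count of 9, with 109, 122 and 130 reads in all. 26 members met the minimum in exactly 3 libraries, 15 met it in all 33, and the median was 13 libraries. 22 members met it in libraries of 1 tissue alone, 18 of them in the tassel, and for these a difference between tissues follows from how they were chosen. The same holds for members that needed 1 tissue to reach 3 libraries but had 10 reads in another too, which were not counted.

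Reads were unevenly spread over the members. The 3 with the most reads held 30.3% of all member reads and the 10 with the most 48.8%. The summed level of the 241 members was 1850.4, 1457 and 734 CPM in the tassel libraries, 1047, 213 and 1258 CPM in the 35-day seed libraries, 132, 298 and 139 CPM in the ear libraries, and 163 to 361 CPM in the other 24 libraries. The tassel and the 35-day seeds were the tissues with the highest sums, and in both the libraries differed several-fold among themselves. As a share of gene reads the members took 0.0902% ± 0.0377 in the tassel, 0.0724% ± 0.0481 in the 35-day seeds and 0.0123% ± 0.0016 in the green V2 blades, which had the lowest share (SD, n = 3 each).

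**Figure D1:**
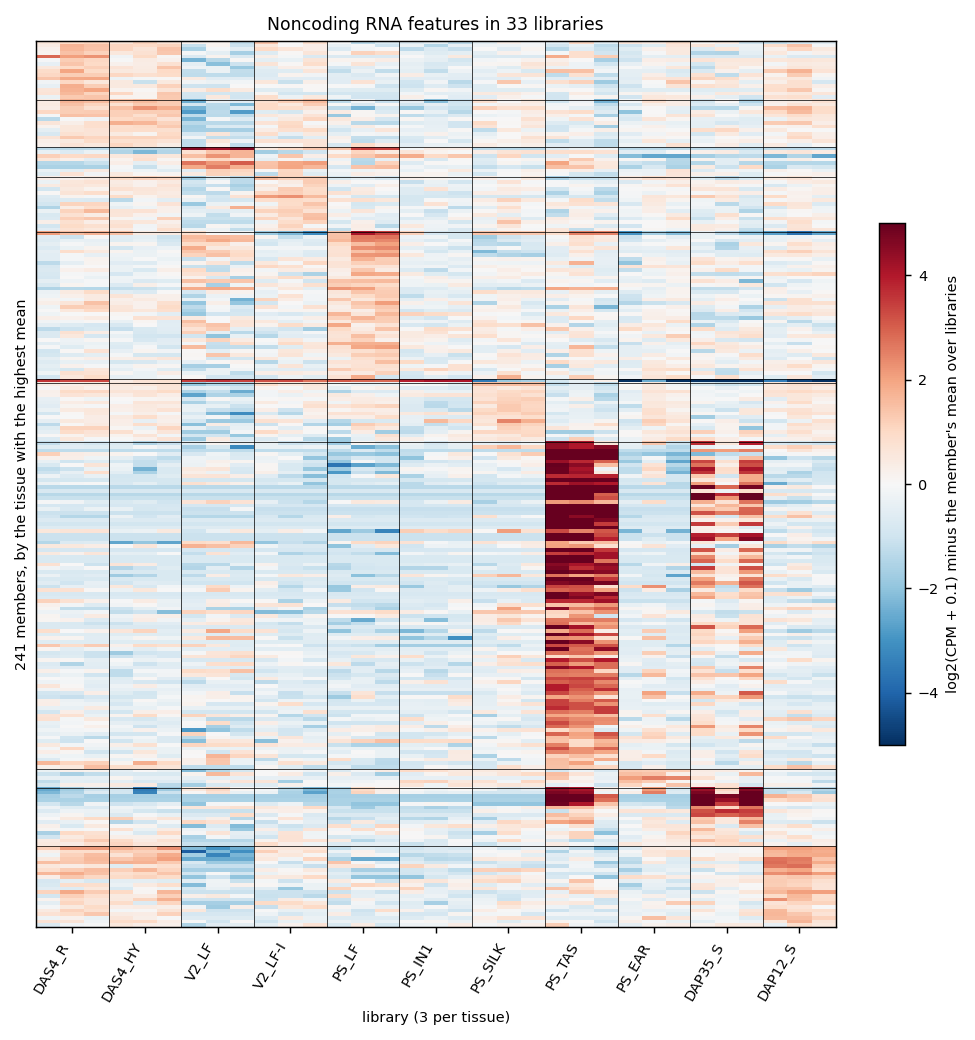
Level of each of the 241 members in the 33 libraries, as log2(CPM + 0.1) minus the member's mean over libraries, with members grouped from top to bottom by the tissue of their highest mean and 3 libraries per tissue from left to right. The largest group is that of the 89 members highest in PS_TAS, many of which are also above their mean in the 35-day seed libraries 1 and 3.

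By tissue mean, 89 members were highest in the tassel, 40 in the PS_LF blade, 22 in the 12-day seeds, 16 each in roots, silks and 35-day seeds, 15 in the immature V2 leaf, 13 in hypocotyls, 8 in the green V2 blade, 5 in the ear and 1 in the internode. With library totals in place of TMM factors the tassel had 77, the 12-day seeds 33, roots 27, hypocotyls 25 and the PS_LF blade 21, so the order below the tassel depends on the scaling. The lowest mean fell most often in the green V2 blade, for 67 members, and for 115 with library totals. A member was counted as detected in a tissue where all 3 libraries had at least 1 read. On that count 91 members were detected in all 11 tissues, or 65 after thinning every library to the depth of the smallest. The green V2 blade detected 119 members, the fewest, and the tassel 209, the 35-day seeds 208 and the 12-day seeds 205. After thinning these were 106, 194, 195 and 198. 7 members were detected in a single tissue, 6 in the tassel and 1 in the ear. 54 members had no read in any of the 3 green V2 libraries, against 4 members for the tassel, 7 for the 35-day seeds, 8 for the 12-day seeds and 28 to 42 for each of the other tissues.

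Over the members, libraries of the same tissue resembled each other most. The correlation of log2 CPM across members, which are not independent replicates, averaged 0.908 over the 33 pairs of libraries within a tissue and 0.581 over the 495 pairs between tissues. For 33 of 33 libraries the most similar other library was of the same tissue. The 35-day seeds and the ears had the lowest averages within a tissue, 0.863 and 0.888. Between tissues, roots and hypocotyls were the most alike (mean 0.903), followed by hypocotyls and immature V2 leaf (0.844) and silks and ears (0.837).

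Each member was then compared between tissues in a model fitted across all 28997 features with enough reads, of which 234 were members. The other 7, with 81 to 162 reads each, were not tested. In the fit without the 4 libraries with the most mitochondrial reads the filter kept all 241 members. Counts from that fit thus refer to a larger set, and the share of all features called in it is not given. Any difference among the 11 tissues was called at an adjusted p under 0.05 for 201 members tested (85.9%), against 99.5% of all features tested, most of which have many more reads. The 33 members without a call had at most 1017 reads, with a median of 302, against a median of 416 for those called. For single tissues, a member was called elevated or reduced where it differed from the mean of the other 10 tissues by more than 2 on the log2 scale at an adjusted p under 0.05 (edgeR quasi-likelihood test, Benjamini-Hochberg adjustment over all features). Adjusted p-values below are from this test unless DESeq2 is named. The 11 comparisons share libraries, so their counts are not independent of each other.

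**Figure D2:**
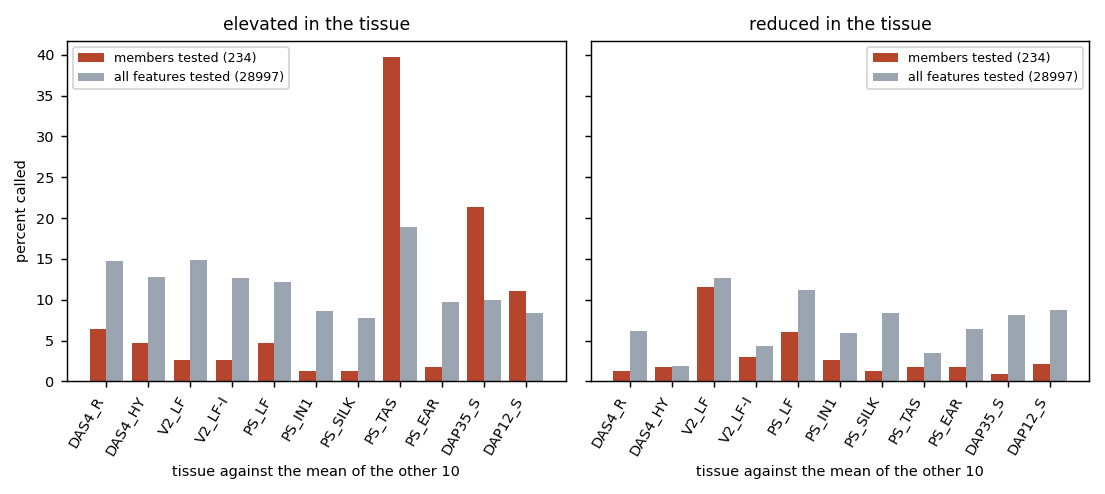
Percent of the 234 members tested (red) and of all 28997 features tested (grey) that were called elevated (left) or reduced (right) in each tissue against the mean of the other 10 tissues. In PS_TAS 39.7% of the members were elevated against 18.9% of all features, and in DAP35_S 21.4% against 9.93%.

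In the tassel 93 members were elevated and 4 reduced (39.7% and 1.71% of those tested), against 18.9% and 3.51% of all features. For 55 of the 93 every tassel library was above every library of the other tissues, and 18 of the 93 had met the read minimum in tassel libraries alone. The median log2 difference of the members was 0.74, against 0.06 for all features. The count of elevated members was 80 with library totals in place of TMM factors, 78 without the 4 libraries with the most mitochondrial reads, which left 1 tassel library, and between 91 and 96 when single libraries were left out, while that of reduced members was 8 without tassel library 2 and 2 without library 3. In 55 of the 93, tassel library 3 was the lowest of the 3 tassel libraries. The sum of the 93 was 1746, 1322 and 649 CPM in tassel libraries 1, 2 and 3. Library 3 also had the fewest mitochondrial reads of the 3, whose part in the calls was not tested.

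In the 35-day seeds 50 members were elevated and 2 reduced (21.4% and 0.855%), against 9.93% and 8.09% of all features. In 2 of the 50 every library was above every library of the other tissues, a count not made over all features. Library 2 was the lowest of the 3 seed libraries for 44 of the 50, and their sum was 928, 120 and 1132 CPM in libraries 1, 2 and 3. Without the 4 libraries with the most mitochondrial reads, 31 were elevated, with the 1 remaining 35-day seed library assumed to vary like the other tissues. The 2 reduced members became 8 without 35-day library 3 and 4 or 5 without any of 8 other libraries. In the 12-day seeds 26 members were elevated and 5 reduced (11.1% and 2.14%), against 8.35% and 8.75% of all features, with 9 reduced when library 3 was left out.

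In the other tissues elevated members were fewer. Roots had 15 elevated and 3 reduced (6.41% and 1.28%), against 14.7% and 6.11% of all features. Hypocotyls had 11 and 4 (4.70% and 1.71%), against 12.8% and 1.87%. Leaving out root library 1 gave 5 reduced members in roots, and leaving out hypocotyl library 3 gave 7 elevated and 8 reduced members in hypocotyls. In the PS_LF blade 11 were elevated and 14 reduced (4.70% and 5.98%), against 12.2% and 11.2% of all features. The green V2 blade had 6 elevated and 27 reduced (2.56% and 11.5%), against 14.9% and 12.6%. Its reduced count was the highest of any tissue, but its share was near that of all features, which was likewise the highest of any tissue. The reduced count was 80 with library totals, the scaling factors of these 3 libraries being the lowest.

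The immature V2 leaf had 6 elevated and 7 reduced members (2.56% and 2.99%), against 12.7% and 4.28% of all features. In the internode 3 were elevated and 6 reduced (1.28% and 2.56%), against 8.57% and 5.95%. Silks had 3 of each (1.28% and 1.28%), against 7.70% and 8.36% of all features. Ears had 4 of each (1.71% and 1.71%), against 9.66% and 6.47%. Without immature leaf library 3 the reduced count was 4 there, and without ear library 2 the ears had 2 elevated and 9 reduced members.

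With library totals in place of TMM factors the split of elevated and reduced members shifted by more than 10 percentage points in several tissues. It became 18 and 1 in hypocotyls, 4 and 80 in the green V2 blade, 7 and 20 in the PS_LF blade and 7 and 2 in ears. The tassel and both seed stages kept more elevated than reduced members on either scale (80 and 9, 45 and 6, and 34 and 3 with library totals for the tassel, 35-day and 12-day seeds). The share of all features called with library totals is not given, here or elsewhere. Whether these splits are particular to the members thus cannot be told.

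**Figure D3:**
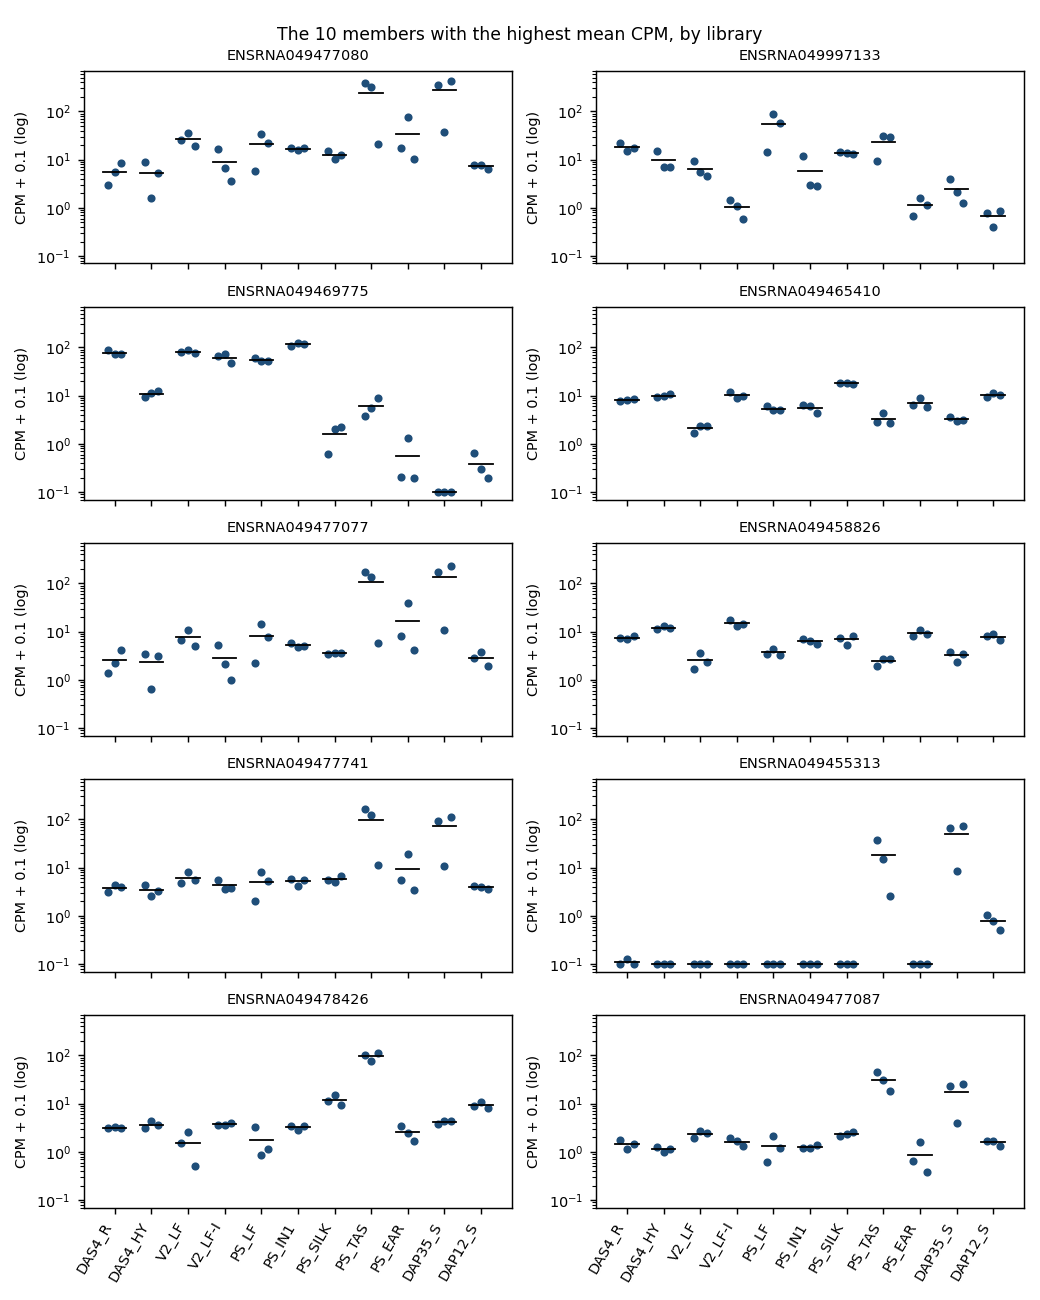
CPM + 0.1, on a log axis, of the 10 members with the highest mean CPM in each of the 33 libraries (points) with the tissue mean (line). ENSRNA049477080, ENSRNA049477077 and ENSRNA049477741 have 1 low library among the 3 of PS_TAS and of DAP35_S, whereas the 3 libraries lie close together for ENSRNA049478426 in PS_TAS and for ENSRNA049469775 in PS_IN1 and V2_LF.

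The 10 members with the highest mean fell into a few patterns. The first was that of ENSRNA049477080, the member with the most reads (40006). It had 383, 314 and 21.0 CPM in the tassel libraries and 353, 36.8 and 432 CPM in the 35-day seeds, against 1.49 to 75.5 CPM (median 10.4) in the other 27 libraries. The low tassel and low seed library lay within the range of the other tissues, and the highest of those 27 was an ear library (16.9, 75.5 and 10.4 CPM in the 3 ear libraries). It was called elevated in the tassel (log2 fold change 3.82 ± 0.45, SE, adjusted p = 2.7e-08) and in the 35-day seeds (4.04 ± 0.45, adjusted p = 1.3e-08) by edgeR. Without the 4 libraries named above the differences were 0.65 ± 0.80 (adjusted p = 0.54) and 1.57 ± 0.71 (adjusted p = 0.076), so neither call remained.

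ENSRNA049477077 followed it most closely among all 29089 features compared (Pearson r = 0.986 over the 33 libraries), and ENSRNA049477741 was next (r = 0.944). ENSRNA049477077 had 173, 137 and 5.60 CPM in the tassel, 169.9, 10.5 and 233 CPM in the 35-day seeds and 7.90, 38.6 and 4.09 CPM in the ears, against 0.541 to 14.2 CPM (median 3.48) elsewhere. ENSRNA049477741 had 161, 121 and 11.3 CPM in the tassel and 94.3, 10.7 and 111 CPM in the 35-day seeds, against 1.97 to 19.0 CPM (median 4.25) elsewhere. The same libraries were high for all 3 members. Without the 4 libraries the log2 fold changes of ENSRNA049477077 were 0.24 ± 0.93 in the tassel (adjusted p = 0.90) and 1.27 ± 0.81 in the 35-day seeds (adjusted p = 0.22), against 4.06 and 4.49 with them. Those of ENSRNA049477741 were 1.14 ± 0.52 (adjusted p = 0.068) and 1.09 ± 0.51 (adjusted p = 0.090), against 3.94 and 3.45 with them, so these calls were lost too. The feature most like ENSRNA049477741 outside the ENSRNA rows was the mitochondrial gene ZeamMp161 (r = 0.892), and ZeamMp136, another mitochondrial gene, was the one most like ENSRNA049477077 (r = 0.885) and ENSRNA049477080 (r = 0.863). Those are descriptions over 33 libraries, 3 per tissue. Whether the library differences in mitochondrial reads play a part in these levels was not tested.

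ENSRNA049477087 showed the same tissues with a smaller gap between libraries. It had 45.2, 31.2 and 17.8 CPM in the tassel and 23.2, 3.92 and 24.9 CPM in the 35-day seeds, against 0.275 to 2.65 CPM (median 1.36) elsewhere. Here every tassel and 35-day seed library was above the other 27. The call in the tassel held without the 4 libraries (log2 fold change 3.58 ± 0.36, adjusted p = 1.4e-08), while that in the 35-day seeds was reduced to 1.21 ± 0.47 (adjusted p = 0.039), below the fold threshold.

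This within-tissue pattern was shared by many of the better-covered members. Of the 69 members averaging at least 1 CPM, 27 had both 35-day seed libraries 1 and 3 at more than 2 times library 2, 23 had tassel libraries 1 and 2 at more than 2 times library 3, and 17 had both. 10 of them also had ear library 2 at more than 2 times each of the others. The 17 were picked after their values were seen. They summed to 1035, 762 and 64.3 CPM in the tassel, 849, 91.1 and 1039 CPM in the 35-day seeds and 37.8, 153 and 22.5 CPM in the ears, against 12.8 to 73.4 CPM in the other 24 libraries. The other 224 members summed to 815, 695 and 670.1 CPM in the tassel and 197, 121 and 219 CPM in the 35-day seeds once the 17 are taken out by that same difference. Over all 241 members, tassel library 3 was the lowest tassel library for 141 and 35-day library 2 the lowest 35-day library for 121.

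**Figure D4:**
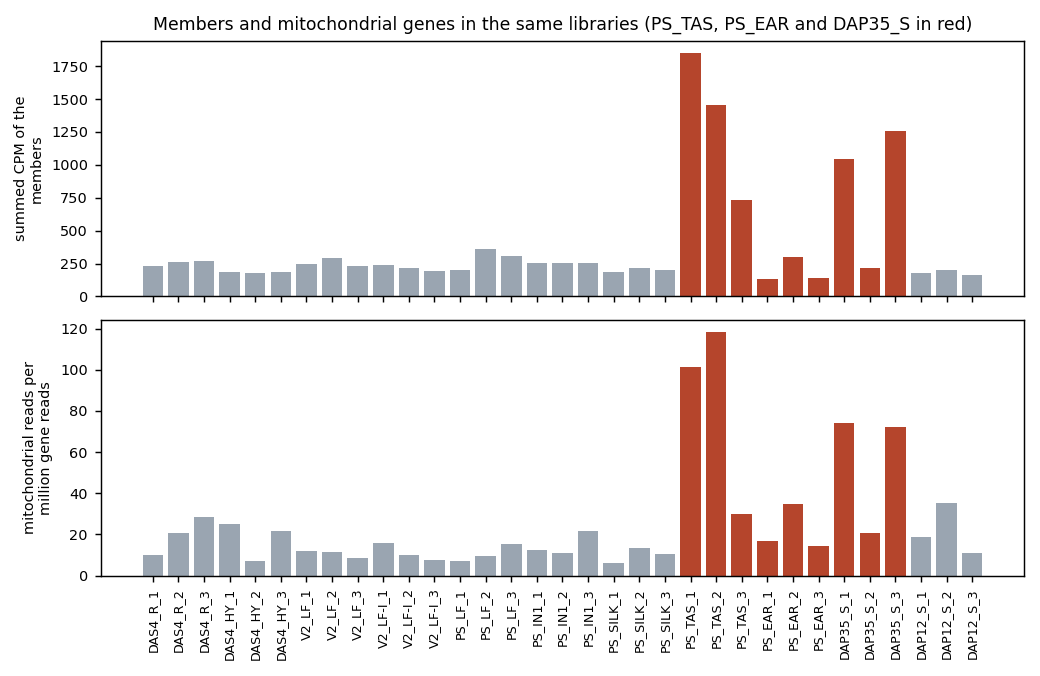
Summed CPM of the 241 members (top) and reads on mitochondrial genes for each 1000000 on genes (bottom) in each library. The 4 libraries highest in the lower panel, PS_TAS 1 and 2 and DAP35_S 1 and 3, are also the 4 highest in the upper one, and PS_TAS 3 comes next in the upper panel with 734 CPM.

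The second pattern was that of ENSRNA049469775, with 33717 reads the second most abundant member. It was high in the vegetative tissues other than hypocotyls and low in the reproductive ones. Its level was 105, 126 and 119 CPM in the internode, 78.4, 87.7 and 75.0 CPM in the green V2 blade, 86.3, 73.001 and 73.1 CPM in roots, 64.8, 71.6 and 47.3 CPM in the immature V2 leaf and 59.7, 53.4 and 51.6 CPM in the PS_LF blade. Internode libraries lay above every other library, while the green V2 blade and roots overlapped. Hypocotyls had 9.25, 11.4 and 12.1 CPM, the tassel 3.77, 5.45 and 8.77 CPM and silks 0.522, 1.91 and 2.16 CPM. Hypocotyls, though vegetative, thus lay just above the tassel and far below the other vegetative tissues. Ears had 0.108, 1.19 and 0.0983 CPM and the 12-day seeds 0.550, 0.195 and 0.0930 CPM.

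In the 35-day seeds ENSRNA049469775 had no read in any library, which allows up to 0.0502 CPM at 3 reads over the tissue. It was called elevated in the internode (adjusted p = 5.2e-14), the green V2 blade (adjusted p = 7.4e-13), roots (adjusted p = 1.5e-12), the immature V2 leaf (adjusted p = 1.8e-11) and the PS_LF blade (adjusted p = 4.4e-11) and reduced in the 35-day seeds (adjusted p = 3.1e-09), all by edgeR. The 2 features most like it were the gene models Zm00001d050465 (r = 0.938) and Zm00001d017866 (r = 0.936).

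ENSRNA049478426 was high in all 3 tassel libraries. It had 101, 76.0 and 114 CPM there, 11.1, 15.01 and 9.49 CPM in silks and 8.65, 10.7 and 7.88 CPM in the 12-day seeds, against 0.418 to 4.33 CPM (median 3.19) in the other 24 libraries. The 3 tassel libraries lay close together and far above the rest, library 3 included. Its log2 fold change in the tassel was 4.76 ± 0.18 (SE, adjusted p = 5.6e-19 by edgeR), and 5.04 ± 0.28 with tassel library 3 alone (adjusted p = 3.5e-13).

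ENSRNA049997133 was highest in the mature blade, with 14.0, 89.6 and 58.1 CPM in PS_LF. The tassel had 9.16, 30.2 and 29.2 CPM, roots 22.0, 15.3 and 17.1 CPM, silks 14.0, 13.5 and 13.1 CPM and hypocotyls 14.9, 7.07 and 6.98 CPM. The lowest levels were 0.577, 1.52 and 1.06 CPM in ears, 1.34, 0.974 and 0.486 CPM in the immature V2 leaf and 0.695, 0.307 and 0.744 CPM in the 12-day seeds. It was elevated in PS_LF (3.61 ± 0.32, SE, adjusted p = 1.0e-10) and in the tassel (2.26 ± 0.35, adjusted p = 2.8e-06) by edgeR. Library 1 was the low one in PS_LF and in the tassel but the high one in the internode (11.9, 2.82 and 2.78 CPM). These plants were harvested on 25 November for library 1 and on 28 November for libraries 2 and 3. With the harvest date in the model the values were 3.21 ± 0.46 in PS_LF (adjusted p = 1.0e-06) and 1.89 ± 0.48 in the tassel (adjusted p = 0.0011), the second under the fold threshold. With library totals the tassel value was 1.67 (adjusted p = 2.1e-04), also under it.

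ENSRNA049465410 and ENSRNA049458826 were present everywhere at moderate levels. ENSRNA049465410 was highest in silks (18.1, 18.5 and 17.3 CPM) and lowest in the green V2 blade (1.61, 2.29 and 2.30 CPM), with 2.70, 4.24 and 2.54 CPM in the tassel. Silk libraries were above every other library. ENSRNA049458826 was highest in the immature V2 leaf (17.3, 13.1 and 14.3 CPM) and hypocotyls (11.2, 13.1 and 11.8 CPM) and lowest in the green V2 blade (1.61, 3.57 and 2.30 CPM) and the tassel (1.82, 2.58 and 2.66 CPM). Neither passed the fold threshold in any tissue, although both differed among tissues (adjusted p = 6.5e-13 and 2.3e-11 by edgeR).

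The last of the 10, ENSRNA049455313, had no read in 23 libraries. Its level was 37.3, 15.4 and 2.54 CPM in the tassel, 65.6, 8.40 and 73.4 CPM in the 35-day seeds and 0.955, 0.698 and 0.403 CPM in the 12-day seeds, with 1 read in a root library and none in the other 23 libraries. It belonged to a set of 29 members with at least 95% of their reads in tassel and seed libraries. Together the 29 had 34 reads elsewhere of 23843. 23 of them had no read at all outside tassel and seeds. No member had all of its reads in the tassel alone, where 7 had at least 95%. The tissues of the set were chosen after the values were seen, and 8 of the 29 had met the read minimum in libraries of 1 tissue alone. That count leaves out members that needed tassel libraries but reached 10 reads in another tissue too. ENSRNA049455242, for example, reached 10 reads in 2 tissues, but not in enough libraries outside the tassel. ENSRNA049455313 remained elevated without the 4 libraries in the tassel (adjusted p = 1.4e-05) and in the 35-day seeds (adjusted p = 1.6e-06 by edgeR).

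**Figure D5:**
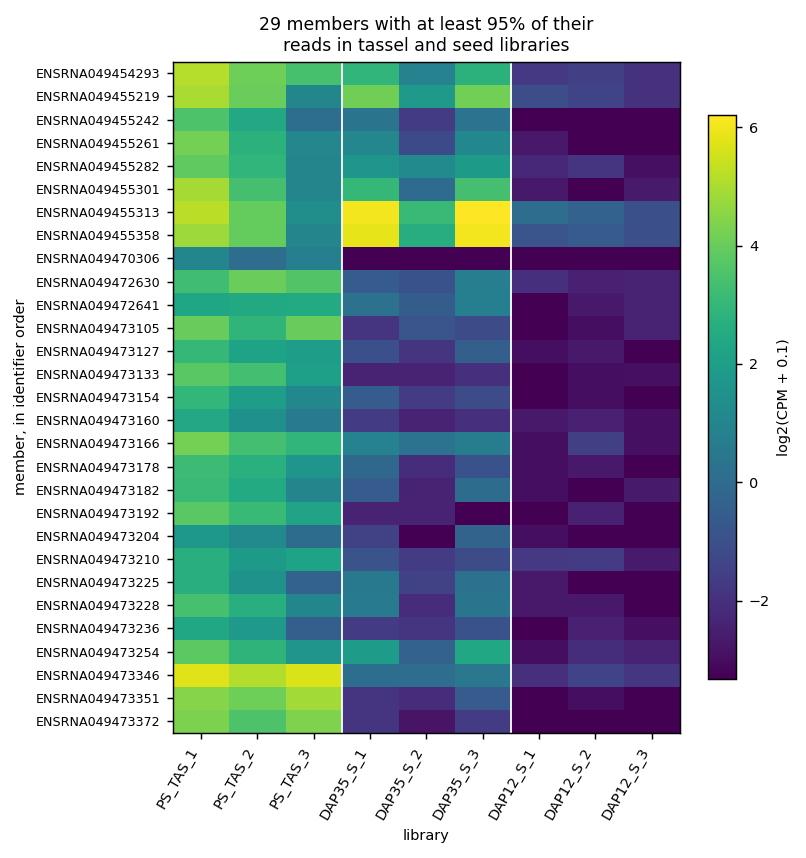
Level of the 29 members with at least 95% of their reads in tassel and seed libraries, as log2(CPM + 0.1), in the 9 libraries of PS_TAS, DAP35_S and DAP12_S, in the order of their identifiers. Members with the lower identifiers are bright in DAP35_S 1 and 3 as well as in the tassel, and those with the higher identifiers are bright mainly in the 3 tassel libraries.

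Of the 29, 28 came in 2 runs of neighbouring identifiers, and ENSRNA049470306 (82 reads, 78 of them in the tassel) lay outside both. The split was drawn after the list was seen, and what the numbering follows is not given in the sources used here. 8 of the 10 members between ENSRNA049454293 and ENSRNA049455358 belonged to it. They summed to 206, 94.4 and 24.0 CPM in the tassel libraries, 163, 23.3 and 181 CPM in the 35-day seed libraries and 2.23, 1.98 and 1.21 CPM in the 12-day seed libraries. For 8 of 8, tassel library 3 was the lowest tassel library and 35-day library 2 the lowest 35-day library. The closest followers of ENSRNA049455313 were ENSRNA049455358 (r = 0.998) and ENSRNA049455219 (r = 0.991) from the same run.

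The second run held 20 of the 22 members between ENSRNA049472630 and ENSRNA049473372. They summed to 254, 169 and 174 CPM in the tassel libraries, 15.2, 6.08 and 18.6 CPM in the 35-day seed libraries and 0.839, 1.56 and 0.806 CPM in the 12-day seed libraries. Tassel library 3 was close to library 2 in this sum. It was nevertheless the lowest tassel library for 13 of the 20, and 35-day library 2 was the lowest 35-day library for 18 of the 20. ENSRNA049473346, the one with the most reads, had 52.8, 33.8 and 50.2 CPM in the tassel, 0.981, 0.948 and 1.28 CPM in the 35-day seeds and 0.145, 0.279 and 0.186 CPM in the 12-day seeds, with 1 read in the other 24 libraries. ENSRNA049473351 had 21.8, 17.1 and 29.1 CPM in the tassel, 0.178, 0.129 and 0.571 CPM in the 35-day seeds and 0, 0.0279 and 0 CPM in the 12-day seeds. For both, every tassel library was above every other library. ENSRNA049473346 was called elevated in the tassel (adjusted p = 2.4e-14 by edgeR), and remained so without the 4 libraries (adjusted p = 2.6e-08). ENSRNA049473351 was called too, but had met the read minimum in tassel libraries alone, so its call follows from how it was chosen. No fold change is given since 8 tissues were at or near 0.

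Members highest in the other tissues, named by the rule given with the methods, had fewer reads. In roots ENSRNA049455425 had 62, 22 and 27 reads (1.12, 0.593 and 0.691 CPM), against 0 to 0.502 CPM (median 0.00916) in the other 30 libraries (adjusted p = 2.0e-09). ENSRNA049472786 was reduced in roots, with 1 read in each root library (0.0181, 0.0269 and 0.0256 CPM), while it had 1.11, 1.19 and 1.04 CPM in the green V2 blade, 1.47, 1.31 and 0.669 CPM in the PS_LF blade and 1.19, 1.01 and 1.10 CPM in the tassel (adjusted p = 3.1e-07 for roots). The 2 leaf blades and the tassel were above the remaining 24 libraries, whose highest value was 0.401 CPM.

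ENSRNA049997063 had most of its reads in leaf material. Its level was 6.05, 4.57 and 6.37 CPM in the green V2 blade, 0.602, 2.67 and 2.51 CPM in the PS_LF blade, 0.258, 0.401 and 0.543 CPM in the immature V2 leaf and 0.139, 0.235 and 0.232 CPM in the internode, with 5 reads in the tassel and none in the other 18 libraries. Every green V2 library was above every other library. ENSRNA049477719 had 1.61, 1.10 and 2.09 CPM in the green V2 blade and 0.619, 0.917 and 1.03 CPM in the immature V2 leaf, against 0 to 0.941 CPM (median 0.0696) elsewhere. Both were called elevated in the green V2 blade (adjusted p = 1.5e-11 and 1.4e-08). ENSRNA049476247 had no read in the 3 green V2 libraries, which allows up to 0.0985 CPM at 3 reads over the tissue. Elsewhere it had 0.0326 to 0.560 CPM (median 0.269) in single libraries (adjusted p = 0.001). In a single green V2 library 3 reads make 0.274 to 0.313 CPM, so the zeros do not place each of them below all other libraries.

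The immature V2 leaf had 0.722, 0.802 and 0.457 CPM of ENSRNA049476276, against 0 to 0.357 CPM (median 0.0490) elsewhere (adjusted p = 1.5e-06), and 1 read in each library of ENSRNA049478041, against 280 reads in all 33 libraries (adjusted p = 0.0023). In the PS_LF blade ENSRNA049460030 had 0.669, 0.656 and 0.669 CPM, against 0 to 0.357 CPM (median 0.0845) elsewhere. Its call as elevated follows from how it was chosen, since it had met the read minimum in PS_LF libraries alone. ENSRNA049470937 was reduced there, with 0, 0.0937 and 0.167 CPM, and it had 49.4, 28.7 and 3.41 CPM in the tassel and 8.16, 1.42 and 11.6 CPM in the 35-day seeds, against 0.373 to 1.98 CPM (median 0.878) in the others. Its high libraries were those with the most mitochondrial reads. Without these 4 libraries its log2 fold change was 2.22 ± 0.58 (SE) in the tassel, against 4.94 with them. In the 35-day seeds it was 0.87 ± 0.66, against 2.79 with them. In the internode ENSRNA049463828 had 0.104, 0.206 and 0 CPM, against 0.279 to 4.02 CPM (median 0.788) elsewhere (adjusted p = 0.00017).

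ENSRNA049467153 was the only member named by this rule for the ear, with 13, 38 and 32 reads (0.469, 0.696 and 0.629 CPM), against 13 reads over the other 30 libraries. It had met the read minimum in ear libraries alone, so its call follows from how it was chosen. In the 12-day seeds ENSRNA049461520 had 0.868, 1.00 and 0.713 CPM, followed by roots (0.508, 0.593 and 0.435 CPM) and hypocotyls (0.234, 0.280 and 0.404 CPM), and none of its reads came from the tassel. ENSRNA049476173 had 1.27, 1.45 and 0.434 CPM in the 12-day seeds, against 0 to 0.383 CPM (median 0.0683) elsewhere. Both were elevated in the 12-day seeds (adjusted p = 9.5e-10 and 7.7e-09).

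In the 35-day seeds the rule named 2 members for which library 2 did not stand apart. ENSRNA049475617 had 1.56, 1.16 and 1.499 CPM, against 0 to 0.377 CPM (median 0) elsewhere, and had met the read minimum in 35-day seed libraries alone, so that its call follows from how it was chosen. ENSRNA049476983 had 1.87, 2.76 and 2.28 CPM, against 0 to 0.256 CPM (median 0.0784) elsewhere (adjusted p = 3.7e-12). It reached 10 reads in libraries of 2 tissues, but in fewer than 3 libraries outside the 35-day seeds. Its call thus also follows from how it was chosen. For both, the 3 libraries were within a narrow range and above all 30 others. In hypocotyls and silks no called member had every library above every other one.

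Some members were level across tissues. Among those averaging at least 1 CPM, ENSRNA049479370, ENSRNA049477136 and ENSRNA049458448 had the lowest ratio of the highest to the lowest tissue mean. ENSRNA049479370 had 5.74, 4.72 and 5.44 CPM in silks, where it was highest, and 2.32, 2.38 and 1.67 CPM in the green V2 blade, and it still differed among tissues (adjusted p = 4.1e-06 by edgeR). For ENSRNA049477136 and ENSRNA049458448 no difference among tissues was called (adjusted p = 0.075 and 0.24).

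Both pairs of stages of the same organ were compared directly. Between the green V2 blade and the immature V2 leaf of the same growth stage, 27 members were higher and 44 lower in the green blade (11.5% and 18.8% of those tested), against 31.3% and 34.2% of all features. With library totals the split was 8 and 87, so the number in each direction depends on the scaling. ENSRNA049997063 was higher in the green blade by 3.77 ± 0.53 on the log2 scale (SE, adjusted p = 1.5e-05 by edgeR). ENSRNA049456769 had no read in the green blade, against 14, 7 and 38 reads (0.722, 0.401 and 1.09 CPM) in the immature leaf, at least 7.47-fold lower with 3 reads over the green blade as the floor (adjusted p = 5.0e-05). ENSRNA049465410 and ENSRNA049458826 were lower in the green blade by 2.29 ± 0.22 and 2.57 ± 0.25 on the log2 scale.

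Between 35-day and 12-day seeds, 59 members were higher and 33 lower in the 35-day seeds (25.2% and 14.1%), against 21.5% and 22.4% of all features. With library totals the split was 46 and 63, and without the 4 libraries with the most mitochondrial reads 17 and 12. ENSRNA049455242 had the largest fitted difference, which depends on the prior count, with 26, 5 and 16 reads in the 35-day seeds and none in the 12-day seeds, at least 28.7-fold higher at 3 reads over the 12-day seeds (adjusted p = 0.011). DESeq2 gave an adjusted p of 0.41 for it, and edgeR without the 4 libraries 0.077. ENSRNA049469775 had no read in the 35-day seeds against 19, 7 and 3 reads in the 12-day seeds, at least 5.55-fold lower with 3 reads over the 35-day seeds as the floor (adjusted p = 0.036), and that call was lost when 12-day library 1 or any one 35-day library was left out, as it was without the 4 libraries (adjusted p = 0.23). ENSRNA049477080 was higher in the 35-day seeds by 5.25 ± 0.99 on the log2 scale (adjusted p = 1.2e-04), with 353, 36.8 and 432 CPM against 7.64, 7.56 and 6.29 CPM in the 12-day seeds. Without the 4 libraries, which left 35-day library 2 alone, the difference was 2.43 ± 0.87 (adjusted p = 0.042).

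Nearly all member reads lay on the strand of the annotated RNA. Over the 33 libraries the members had 303006 reads on it and 209 on the opposite strand, so that 99.93% were sense. 172 members had no opposite read, and no member had more opposite than sense reads. The rule counted sense reads, so a row with opposite reads alone could not be a member, and these shares are a description. The lowest shares were 93.8% for ENSRNA049464139 (121 sense and 8 opposite reads), 98.3% for ENSRNA049475572 (357 and 6) and 98.6% for ENSRNA049475135 (211 and 3). Among the 28816 gene models at the same read minimum, 6.53% had a share under 95%, and 1 of the 241 members did. In the count that ignores strand, 10 members had fewer reads than in the stranded one, and ENSRNA049465372 (1356 stranded reads), ENSRNA049465428 (1542) and ENSRNA049475532 (368) had none. The counter leaves out a read that overlaps more than 1 gene, and whether these members overlap a gene on the other strand was not tested.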

How the data were processed

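RNA from 11 tissues of B73 maize, 3 libraries each, was poly(A) selected, made into strand-specific paired-end libraries and sequenced. Before deposit the authors used Trimmomatic for trimming, SortMeRNA against ribosomal RNA and STAR for alignment to the AGPv4 genome, and the deposited files hold STAR's raw count of reads per gene in each library. Neither the version of STAR nor the annotation release is given in the sources used here. The raw counts of the reverse-strand column were used. Lines for unmapped, multimapped, unassigned and ambiguous reads, which together took a median of 12.1% of reads, stayed out of all totals. Multimapped reads are not counted, so members with near-identical copies are underestimated.

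Samples were grouped by the labels. All features kept by filterByExpr (28997) were fitted with edgeR 4.0.16 (R 4.3.3, trended dispersions, quasi-likelihood test, TMM, 22 residual degrees of freedom), each tissue being set against the mean of the other 10 and 2 pairs of stages against each other. Standard errors were derived from the fold change and its F value. Calls needed an adjusted p under 0.05 and, for single tissues, an absolute log2 fold change above 2. Fitted fold changes of features at 0 in a tissue depend on the prior count and are not given; 3 reads set the floor. Alternatives were DESeq2 1.42.0, other scalings, filters, strand column, a replicate block, harvest date and leaving out libraries. The test was checked on simulated counts for the tassel comparison, with the same spread for all features. Changes were set only in features with more reads than most members have, so the check does not cover members with few reads.

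Members and lists were chosen with earlier results of these data known. Members named were the 10 with the highest mean CPM, up to 2 elevated and 1 reduced per tissue with every library beyond all others (for elevated ones at 0.5 CPM or more), the 3 most even at 1 CPM or more, the call with the largest fitted fold change in each direction of each pair, the 3 with the lowest sense share and the rows at the edge of the rule. The sets of 17 and 29 members, the 2 runs of identifiers and the stranded members without unstranded reads were added after their values were seen. Over all pairs of tissues, same-numbered libraries deviated together little on average (mean r of deviations 0.020, 23 of 165 pairs above 0.1, highest 0.278). Tissues that share harvest dates were not looked at apart.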

Additional observations from a re-analysis of the deposited data

Results flagged for a closer look

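Outside the 241 members, 179 further ENSRNA rows had more than 3 reads over the 33 libraries, above what a count of 0 allows. Their median was 29 reads, the highest had 142, and the 179 together had 7678 reads, of which 24.3% were in the tassel, 12.1% in roots and 2.27% in the green V2 blade. 12 ENSRNA rows had more than 3 reads on the opposite strand and none on their own. On the members themselves, 209 reads lay on the opposite strand.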

How the results depend on the processing

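The numbers of members elevated in the tassel (93) and in the 35-day seeds (50) stayed within 1.5 times of these values under DESeq2, RLE normalization, no filter, the unstranded column, harvest date, library totals and with each library left out, except that 31 were elevated in the 35-day seeds without the 4 libraries with the most mitochondrial reads. That setting and library totals were chosen after seeing the data. A replicate block gave 27 of 27 counts within 1.5 times, with 93 elevated in the tassel and 51 in the 35-day seeds.

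DESeq2 gave 7 members reduced in roots, 11 in the internode, 10 in silks, 13 in ears and 8 in the 12-day seeds, and 1 elevated in silks, 2 in ears and 17 in the 12-day seeds. With harvest date 1 was elevated in ears. Without the 4 libraries 2 were reduced in hypocotyls, 4 in the immature V2 leaf and 8 in the tassel, and between seed stages 17 were higher and 12 lower. With library totals 23 were elevated in roots, 18 in hypocotyls, 7 in PS_LF and 7 in ears, and 1 was reduced in hypocotyls, 80 in the green V2 blade, 9 in the tassel, 2 in ears, 3 in the 12-day and 6 in the 35-day seeds. On that scale 8 were higher and 87 lower in the green than in the immature V2 leaf, and 63 lower in 35-day than in 12-day seeds. The cause of these shifts was not tested, other than the change of scale itself.

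Leaving out single libraries gave 2 to 5 reduced in roots, 7 to 13 elevated and 3 to 8 reduced in hypocotyls, 4 to 9 reduced in the immature V2 leaf, 2 to 8 reduced in the tassel, 2 to 5 elevated and 4 to 9 reduced in ears, 4 to 9 reduced in the 12-day and 2 to 8 in the 35-day seeds. Requiring 5 reads in all 3 libraries, 31 members were detected in all 11 tissues, 39 in 1 tissue and 2 in none, with a median of 5 tissues. Without the leading member the share of gene reads was 0.0279% in the internode and 0.0194% in silks. The alternatives were run for 60 fold changes, the calls of the 10 members with the highest mean and those of members named by tissue or pair. Of 2460 alternative values 0 had the opposite direction and 50 lost the call. Leaving out single libraries gave most of these values, with 1959 that kept the call and 21 that lost it. Calls were lost most often, for the number of values run, without the 4 libraries, which left 1 tassel and 1 35-day seed library.

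With a median of 373 reads per member over 33 libraries, many members have a few reads per library. A member not detected, or not called, may differ by an amount that this depth cannot show.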
